A study of Mus musculus with 12 samples.

Results

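PYHIN family genes were followed through 12 RNA-seq libraries of mouse peritoneal macrophages (PMφs). The 7 genes described, Aim2, Ifi203, Ifi204, Ifi205, Mnda, Mndal and Pyhin1, were taken by symbol from a table of 43278 gene symbols, and all 7 were found. PMφs are cells drawn into the peritoneal cavity of wild-type C57BL/6J mice with 4% thioglycolate and harvested by lavage after 4 days. Males and females of 8 to 12 weeks, up to 10 mice per experiment, were pooled, and the pooled cells were divided into 4 groups, cultured, and used as adherent cells after 18 h. Each group had 3 libraries. Control PMφs were untreated, oxLDL PMφs were loaded with oxidized low-density lipoprotein at 100 µg/ml over 24 h, LPS PMφs received LPS at 10 ng/ml, and oxLDL+LPS PMφs received both agents at these doses. No group carried a genetic change, and how long LPS was present before these extractions is not given in the sources used here. The values are normalized counts, that is, reads per gene divided by a factor of each library and deposited as whole numbers.

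Most PYHIN proteins carry a pyrin domain, which binds other pyrin domains, and most carry a HIN domain, which binds DNA. Aim2 senses double-stranded DNA in the cytosol and assembles an inflammasome with the adaptor ASC and caspase-1, and several of its relatives act in the nucleus or in DNA sensing that leads to type I interferon. The mouse genes lie in a cluster that has multiplied by duplication, and many are classical interferon-inducible genes of macrophages.

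On GRCm38, GENCODE M21 places the cluster on chromosome 1 between 173350879 and 174031810, a span of 680.9 kb from Aim2 to Ifi205. Aim2 (ENSMUSG00000037860) runs on the plus strand from 173350879 to 173466040. Pyhin1 (ENSMUSG00000043263, called Ifi209 in that annotation) lies on the plus strand from 173630917 to 173647928. The other 5 genes lie on the minus strand. Ifi204 (ENSMUSG00000073489) runs from 173747293 to 173766943, and Mndal (ENSMUSG00000090272) from 173849126 to 173942491. Mnda (ENSMUSG00000026536, now Ifi211) runs from 173896345 to 173913046, Ifi203 (ENSMUSG00000039997) from 173920407 to 173942672 and Ifi205 (ENSMUSG00000054203) from 174011998 to 174031810. Mndal as annotated spans Mnda and most of Ifi203, but it shared 37 exonic bases with Ifi203, of the 6706 exonic bases of that gene.

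Because the genes are duplicates, reads of one can match another. Of the 1636 different 150-base windows in the annotated Mnda transcripts, 46.4% occurred unchanged in a transcript of another gene, and 32.3% occurred in Ifi205. The share was 12.6% for Ifi205, 9.28% for Pyhin1, 6.77% for Ifi204, 1.61% for Mndal, 0.827% for Ifi203 and 0.0% for Aim2. A read from such a window cannot be assigned to 1 gene by itself. Its mate may lie outside shared sequence, and pairs of reads were not examined. By this measure the level of Mnda is the least certain of the 7, whereas no window of Aim2 was shared.

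RefSeq promoter windows of 300 bases (GRCm38.p6, 250 before and 50 after the start site) were found for 6 of the 7 genes and searched on both strands. The core of the interferon-stimulated response element, GAAANNGAAA, was present in a window of 4 of the 6, against 3.99% of the 27025 genes with a window, and in 4 of 5 windowed genes among the other PYHIN genes of the cluster. The stretches below, written in the direction of the gene, show where the core lies and how alike the flanks are, with the core in capitals.
Mndal, chr1:173880194-173880243, minus strand: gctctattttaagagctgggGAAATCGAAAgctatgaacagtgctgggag
Ifi203, chr1:173942498-173942547, minus strand: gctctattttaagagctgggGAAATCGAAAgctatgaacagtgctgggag
Mnda, chr1:173913054-173913103, minus strand: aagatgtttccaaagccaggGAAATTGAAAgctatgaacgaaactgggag
Ifi205, chr1:174031860-174031909, minus strand: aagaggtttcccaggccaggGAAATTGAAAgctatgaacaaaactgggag
Pydc3, chr1:173673587-173673636, plus strand: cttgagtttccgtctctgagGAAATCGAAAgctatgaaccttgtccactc
AI607873, chr1:173741821-173741870, minus strand: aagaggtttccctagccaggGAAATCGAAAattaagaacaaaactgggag
The core began 36, 35 and 37 bases before the start site in Mndal, Ifi203 and Mnda, and 134 bases before it in Ifi205. Ifi205 held a second core on the opposite strand, 23 bases past the start site, and a second Mndal window held one on the opposite strand, 54 bases before its own start site. The Mndal and Ifi203 stretches were identical over all 50 bases, and those of Mnda and Ifi205 differed at 4 of 50. Pydc3, Pydc4 and AI607873 are other PYHIN genes of the cluster, and the stretches of Pydc3 and Pydc4 were also identical over 50 bases.

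The windows of Aim2 and Pyhin1 held no GAAANNGAAA, which says only that these letters are not in these 300 bases. The Aim2 window surrounds a RefSeq start site at 173420604, inside the gene as GENCODE M21 annotates it. The annotated start of Aim2 at 173350879 was thus not searched. The Mndal windows likewise lie inside the annotated span of Mndal. Both windows are shown whole because no exact match was found in them. The Pyhin1 window does hold taaatcgaaa, which differs from the core GAAATCGAAA in its first letter only. It follows tctctgag there, as the core does in the Pydc3 stretch. Near matches were not searched for in any window.
Aim2, chr1:173420354-173420653, plus strand: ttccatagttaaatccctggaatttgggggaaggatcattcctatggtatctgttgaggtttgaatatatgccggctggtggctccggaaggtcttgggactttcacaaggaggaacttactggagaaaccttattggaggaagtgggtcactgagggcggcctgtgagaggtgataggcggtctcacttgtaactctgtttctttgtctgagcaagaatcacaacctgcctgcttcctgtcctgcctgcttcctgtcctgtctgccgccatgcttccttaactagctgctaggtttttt
Pyhin1, chr1:173630609-173630908, plus strand: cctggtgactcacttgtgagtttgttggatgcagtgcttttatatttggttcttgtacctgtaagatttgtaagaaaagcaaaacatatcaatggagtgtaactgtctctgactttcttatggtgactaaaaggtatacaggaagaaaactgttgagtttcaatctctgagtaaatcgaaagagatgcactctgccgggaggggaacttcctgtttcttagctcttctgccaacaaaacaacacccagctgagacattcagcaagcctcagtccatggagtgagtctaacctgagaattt
Of the other motifs searched, the gamma-activated site TTCNNNGAA was in 0 of the 6 genes and in 9.55% of all genes, the κB form GGGNNTTTCC in 0 of 6 and 1.89%, and TATAAA in 2 of 6 and 15.7%.

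The libraries held 16725623 to 26178592 implied reads, where 1 read is worth 0.7635 to 1.4128 normalized counts, so a level of 20 rests on about that many reads. All 7 macrophage markers in the table were present in every group, with Lyz2 at 157225 to 215646 and Cd68 at 35765 to 51371. Some marker lists of other cells differed between libraries with and without LPS. The summed T cell list (5 of 5 genes in the table) was at 15 to 26 without LPS and 82 to 238 with it, almost all from Lck, while Cd3e, Cd3d and Cd3g stayed at 0 to 2. The neutrophil list (6 of 6) was at 31 to 50 without LPS and 79 to 257 with it, mostly from S100a8, while Ly6g was at 0 in every library and S100a9 at 0 to 1. The list for large peritoneal macrophages (4 of 4) was at 322 to 528 in control, 330 to 439 in oxLDL, 476 to 843 in LPS and 362 to 513 in oxLDL+LPS libraries. Its genes did not move together. Timd4 was at 1 to 16 without LPS and 97 to 230 with it. Gata6 was at 186 to 374 in control, 183 to 309 in oxLDL, 112 to 424 in LPS and 90 to 208 in oxLDL+LPS libraries. The natural killer cell list (4 of 4) was at 4 to 6 without LPS and 0 to 3 with it, with Ncr1 at 0 in every control, oxLDL and LPS library. The dendritic cell list (5 of 5) was at 51 to 88 without LPS and 75 to 101 with it, with Siglech at 0 outside the LPS libraries. Their part in the results below was not tested.

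LPS was first compared with control to see how the family responds in cells without lipid loading. All 7 genes rose, and in each of them the lowest LPS library stood above the highest control library. The share of all genes with that pattern was not counted, and 31.4% of the 13023 genes tested were called higher. Aim2, the cytosolic DNA sensor, read 771, 945 and 963 in control libraries 1 to 3 and 2603, 2397 and 3454 in LPS libraries. Ifi204, whose protein p204 takes part in DNA sensing and macrophage differentiation, read 1188, 990 and 1264 in control and 24146, 25441 and 29232 in LPS libraries. Per length of exon, given further on, these were the most abundant of the 7 in control PMφs, and Aim2 was the least abundant of them under LPS. Ifi203, a nuclear member of the family, read 388, 568 and 594 in control and 20719, 28509 and 28660 in LPS libraries. Ifi205 was near the lower limit in control PMφs, at 24, 25 and 17, which correspond to 31, 27 and 20 reads, and reached 16306, 19340 and 23712 with LPS. Among the 7 genes the separation was therefore widest in Ifi205 and narrowest in Aim2. Mnda, which shares its name with the human myeloid cell nuclear differentiation antigen, read 179, 161 and 148 in control and 9092, 9717 and 10755 in LPS libraries. Its relative Mndal read 397, 536 and 579 against 19790, 19967 and 23027. Pyhin1, a member with both a pyrin and a HIN domain, read 416, 466 and 491 against 26080, 24569 and 31471. In bulk RNA, more RNA per cell and more cells that hold it cannot be told apart.

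**Figure D1:**
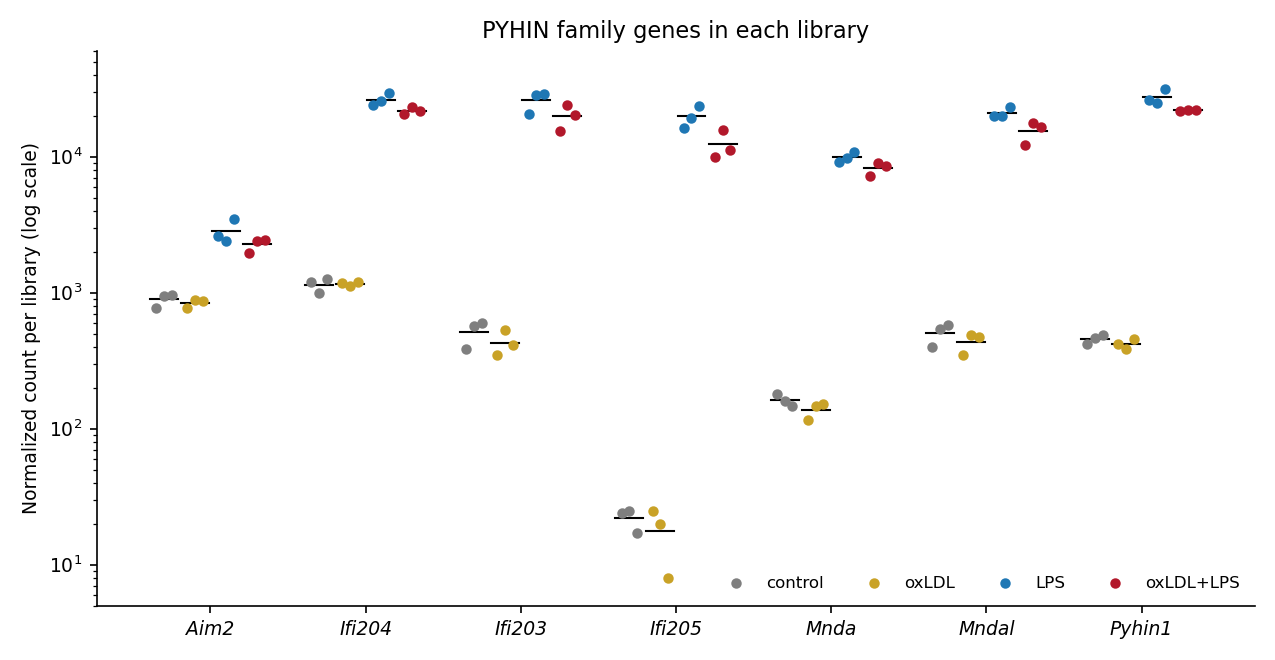
Normalized count of each gene in each library on a log axis, with 3 points per group and a black line at the group mean. For every gene the LPS and oxLDL+LPS points lie above all control and oxLDL points, from 1972 against 963 at the closest in Aim2 to 10009 against 25 in Ifi205.

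On the log2(value + 1) scale, the change from control to LPS was 1.65 ± 0.16 (SE, n = 3 per group) for Aim2 and 4.52 ± 0.12 for Ifi204. It was 5.39 ± 0.15 for Mndal, 5.66 ± 0.20 for Ifi203, 5.89 ± 0.12 for Pyhin1, 5.91 ± 0.11 for Mnda and 9.75 ± 0.19 for Ifi205. As ratios of group means these were 3.16 for Aim2, 22.9 for Ifi204, 41.5 for Mndal, 50.2 for Ifi203, 59.8 for Pyhin1, 60.6 for Mnda and 899 for Ifi205. All 7 passed the test by limma with Benjamini-Hochberg adjustment over 13023 genes, with adjusted p from 7.4e-08 for Ifi205, Mnda and Pyhin1 to 8.1e-05 for Aim2. Of all genes tested, 31.4% were called higher, and 34.6% with the replicate number as a block. Ordered by the size of the increase, Ifi205 was number 25 of the 13023 genes, Mnda 118, Pyhin1 119, Ifi203 145, Mndal 163, Ifi204 240 and Aim2 1180. Scaling the libraries to equal totals moved the median of all genes to −0.48 and the split of calls from 4093 higher and 3946 lower to 2210 and 7200. With equal upper quartiles the median was −0.25 and the split 2920 and 5559. Under both scalings the 7 genes were still called higher, with Aim2 at 1.16 under equal totals.

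**Figure D2:**
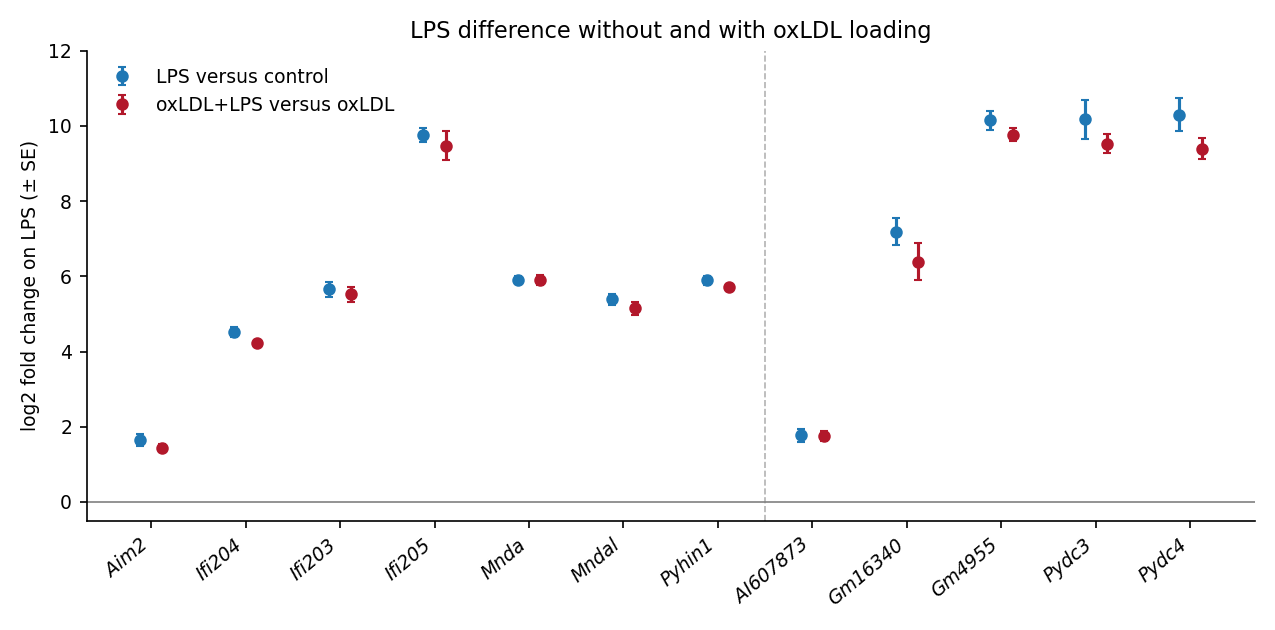
Log2 fold change on LPS with its SE for the 7 genes (left of the dashed line) and 5 other PYHIN genes of the cluster, in cells without oxLDL (blue) and with oxLDL (red). Aim2 and AI607873 lie between 1.42 and 1.77, and the other genes lie at 4.23 or above.

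The order of the genes changed with LPS, both as counted and when levels were divided by exonic length (normalized count per kb of exon, lengths from GENCODE M21). The counts were made on GENCODE M4, so the lengths of the gene models counted may differ from these. In control PMφs, Ifi204 stood highest at 322 ± 39.7 per kb (SD, n = 3), then Aim2 at 255 ± 30.3, and the ranges of these neighbours did not overlap. Mndal followed at 139 ± 26.2 and Pyhin1 at 129 ± 10.8, which overlapped, then Mnda at 91.1 ± 8.72 and Ifi203 at 77.1 ± 16.7, which also overlapped. Ifi205 was last at 5.27 ± 1.04. With LPS, Pyhin1 at 7717 ± 1023 and Ifi204 at 7378 ± 742 per kb led with overlapping ranges and stood above the rest. Mndal at 5768 ± 502, Mnda at 5521 ± 471, Ifi205 at 4737 ± 891 and Ifi203 at 3872 ± 677 formed a chain in which each overlapped with the next. Aim2 came last at 805 ± 160, below every other member in every LPS library. In the oxLDL+LPS libraries Pyhin1 at 6204 ± 49.5 and Ifi204 at 6122 ± 348 again led, and Aim2 at 647 ± 72.2 was again last.

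**Figure D3:**
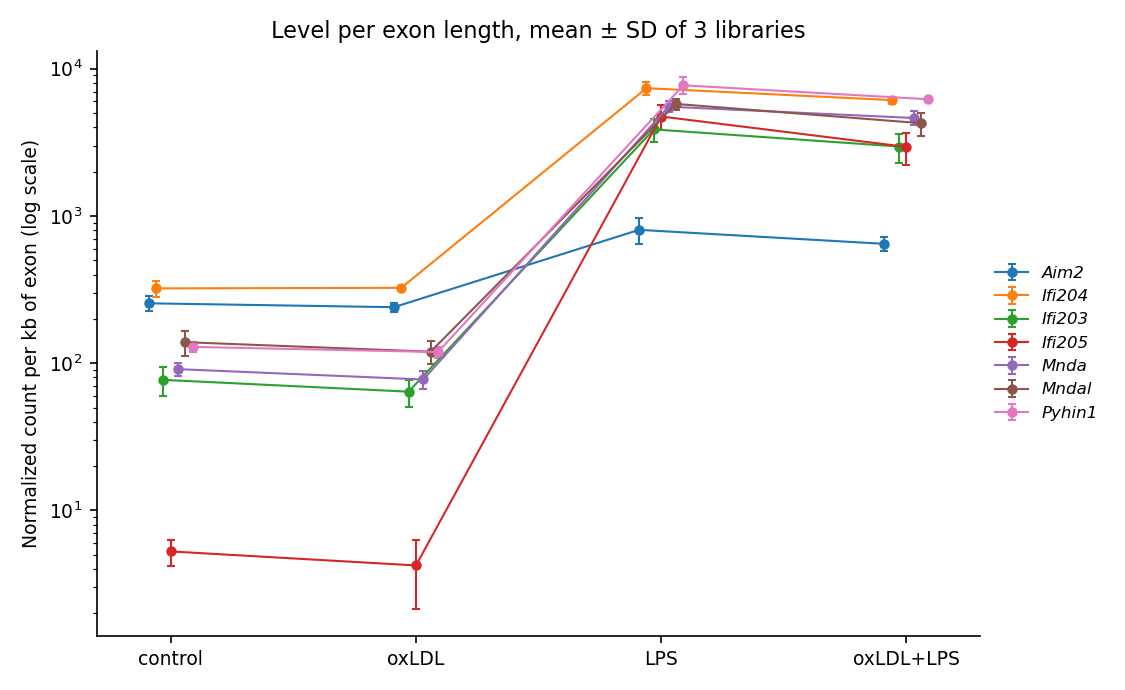
Mean ± SD (3 libraries) of the normalized count per kb of exon in the 4 groups, on a log axis, with 1 line per gene. The lines of control and oxLDL are nearly level, all rise with LPS, and Aim2 passes from the second highest at 255 to the lowest at 805 while Ifi205 climbs from 5.27 to 4737.

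Together the 7 genes held 0.0196% to 0.0229% of all normalized counts in control libraries and 0.526% to 0.570% in LPS libraries. In oxLDL libraries the share was 0.0183% to 0.0205%, and in oxLDL+LPS libraries 0.405% to 0.491%, below each LPS library.

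The other PYHIN genes of the cluster rose as well. Of 17 listed symbols 7 were in the table and 6 passed the filter on low values, and all 6 were called higher with LPS, with a median of 8.67 against a median of 0 over all genes tested. These genes passed the filter through the LPS libraries, apart from AI607873, so the count is a description. Gm4955 (Ifi206) read 6, 3 and 7 in control and 7196, 6386 and 7266 in LPS libraries. Pydc3 (Ifi208) read 1, 4 and 0 against 2898, 2110 and 2527, and Pydc4 (Ifi213) 1, 6 and 5 against 5656, 4733 and 6184. The pseudogene Gm16340 (Ifi203-ps) read 2, 6 and 2 against 550, 521 and 672. These genes were thus at a few reads without LPS, and their fitted changes depended on the pseudocount. That of Pydc3 was 10.18 with a pseudocount of 1, 10.70 with 0.5 and 8.59 with 5, and that of Gm4955 10.16, 10.29 and 9.41. AI607873 (Ifi207) behaved differently in its control level, reading 3105, 3982 and 4839 in control, above each of the 7 genes also per kb of exon, and 11729, 12858 and 15726 with LPS. Its change of 1.77 ± 0.18 was close to that of Aim2. BC094916, for which the reference tables hold no entry, stood at 0 to 4 in control and 278 to 359 in LPS libraries. Ifi202b was at 0 in every library without LPS and at 0 to 3 with it, so no fold is given.

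**Figure D4:**
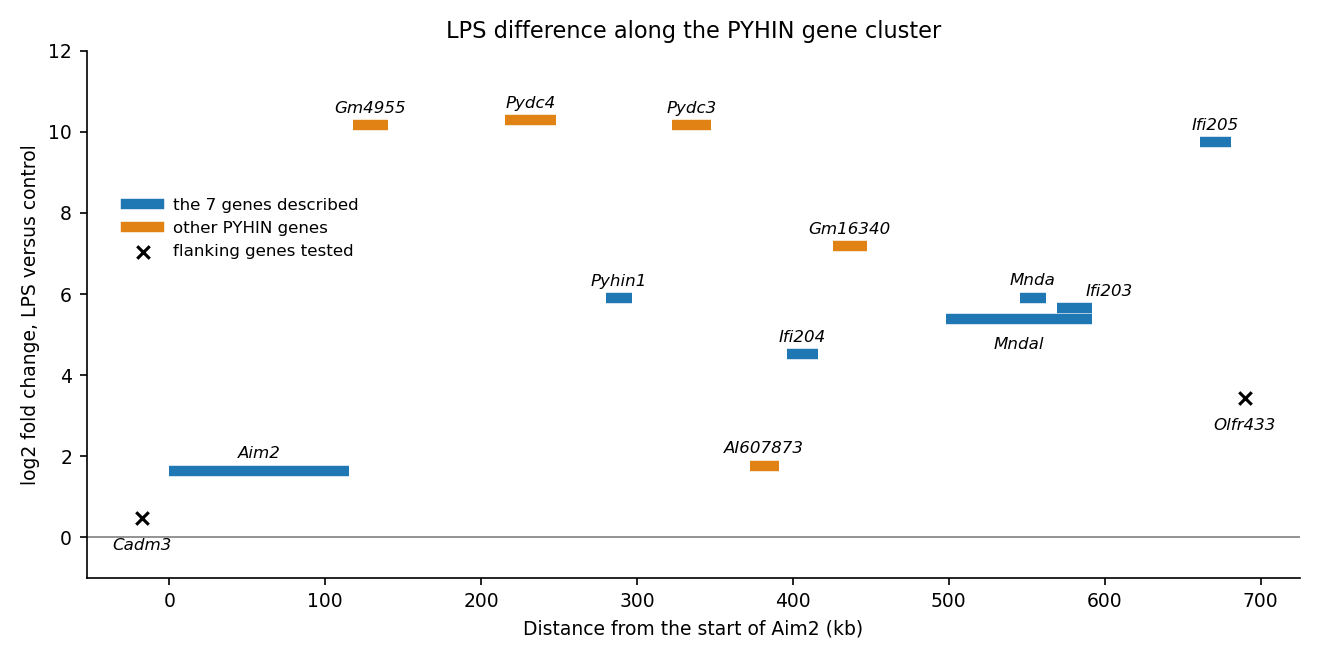
Log2 fold change from control to LPS against distance from the start of Aim2 in kb, with bars as long as the annotated genes (blue for the 7 genes, orange for other PYHIN genes) and crosses for tested flanking genes. The bars rise from 1.65 for Aim2 to 10.29 for Pydc4 with no steady trend along the cluster, and the flanking Cadm3 lies at 0.48.

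Outside the cluster, 40 annotated genes lay within 500 kb of its ends. Only 2 of the 33 found in the table passed the filter on low values. Cadm3, a cell adhesion gene next to Aim2, changed by 0.48 (limma, adjusted p = 0.40), and the olfactory receptor gene Olfr433 beyond Ifi205 was higher by 3.44 (adjusted p = 0.0012). The rise was thus measured in all 7 genes, from one end of the cluster to the other, and the flanks offer too few expressed genes to place its borders.

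LPS was then compared within oxLDL-loaded PMφs (oxLDL+LPS versus oxLDL), and all 7 genes rose again without overlap. The share of all genes without overlap was not counted here either. Aim2 read 767, 882 and 873 in oxLDL libraries 1 to 3 and 1972, 2394 and 2424 in oxLDL+LPS libraries. Ifi204 read 1172, 1111 and 1189 against 20663, 23122 and 21617. Ifi203 read 350, 527 and 412 against 15318, 24097 and 20168. The order of the increases was close to that in unloaded cells, with Aim2 least and Ifi205 most. Ifi205 read 25, 20 and 8 against 10009, 15700 and 11200. Mnda read 116, 146 and 153 against 7257, 9038 and 8493. Mndal read 346, 485 and 472 against 12260, 17539 and 16625, and Pyhin1 419, 388 and 460 against 21812, 22055 and 22153. The Pyhin1 values with oxLDL+LPS were the tightest of any group, with an SD of 175.6 on a mean of 22007. The log2 changes were 1.42 ± 0.11 for Aim2, 4.23 ± 0.08 for Ifi204, 5.15 ± 0.18 for Mndal, 5.52 ± 0.20 for Ifi203, 5.70 ± 0.09 for Pyhin1, 5.89 ± 0.13 for Mnda and 9.47 ± 0.39 for Ifi205. By limma with Benjamini-Hochberg adjustment all 7 were called, with adjusted p from 4.7e-08 for Pyhin1 to 5.2e-05 for Aim2. Over all 12900 genes tested, 28.2% were called higher, and 32.0% with the replicate block. With equal totals the median of all genes moved to −0.40 and the calls from 3633 higher and 3397 lower to 2055 and 6616, and all 7 genes stayed called higher.

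Next, oxLDL was compared with control, to see whether loading alone changed the family. None of the 7 genes was called by limma without the block (adjusted p = 1 for each), and neither was any other gene (381 at an unadjusted p under 0.05). The paper, which used DESeq2 at an adjusted p under 0.1, does report a significant induction of genes such as Cd36. The libraries of the groups overlapped in all 7 genes. Mean levels were 5.9% lower in Aim2, 7.7% lower in Pyhin1, 13.8% lower in Mndal, 15.0% lower in Mnda, 16.8% lower in Ifi203 and 19.7% lower in Ifi205, and 0.9% higher in Ifi204. The log2 differences ran from −0.42 ± 0.43 in Ifi205 to 0.02 ± 0.10 in Ifi204, with a median of −0.21. Without the block, the 95% interval was −0.33 to 0.17 in Aim2 and −0.21 to 0.25 in Ifi204. That of Ifi205, at 8 to 25 normalized counts, reached from −1.43 to 0.60. The SE with the block was smaller, at 0.05 for Aim2, 0.06 for Ifi204 and 0.28 for Ifi205. Aim2, Ifi203 and Mndal were lower in all 3 same-numbered pairs, a pattern not counted over all genes. With the replicate number as a block 0 of the 7 were called lower as well, where 2.92% of the 12751 genes were called lower, against 0.0% without the block. The share of genes with every oxLDL library below every control library was 3.91%, and 0 of the 7 were among them. The blocked call nearest to the threshold was Mndal, with a limma adjusted p of 0.11.

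The last pairwise comparison, oxLDL+LPS versus LPS, asked whether loading changed the level reached with LPS. All 7 genes had lower means in the loaded cells, and in 5 of them, Ifi204, Ifi205, Mnda, Mndal and Pyhin1, the highest oxLDL+LPS library stood below the lowest LPS library. Among all 12786 genes tested, 6.39% had that pattern. Aim2 overlapped because 2397 in LPS library 2 lay between the oxLDL+LPS values of 2394 and 2424, and Ifi203 because 20719 in LPS library 1 lay below 24097 in oxLDL+LPS library 2. The largest difference was in Ifi205, whose mean was 37.8% lower, and the smallest in Mnda, 16.2% lower. The means of Mndal were 26.1% lower, of Ifi203 23.5%, of Aim2 19.7%, of Pyhin1 19.6% and of Ifi204 17.0%. None was called by limma without a block, with adjusted p of 0.70 to 0.75, and neither was any other gene (0.0% called lower, with 890 genes at an unadjusted p under 0.05). The log2 differences were −0.70 ± 0.21 for Ifi205, −0.45 ± 0.17 for Mndal, −0.40 ± 0.22 for Ifi203, −0.31 ± 0.14 for Pyhin1, −0.30 ± 0.16 for Aim2, −0.27 ± 0.14 for Ifi204 and −0.26 ± 0.13 for Mnda.

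By the methods, pooled cells were divided among the groups, and libraries of the same number deviated together, so the comparison was repeated within pairs. With the replicate block, limma called 4 of the 7 genes lower: Ifi205 (adjusted p = 0.021), Mndal (0.051), Ifi203 (0.058) and Aim2 (0.099). Mnda (0.11), Pyhin1 (0.14) and Ifi204 (0.18) did not pass 0.1. The block called 8.74% of all genes lower. The calls depended on which pairs were fitted, since 0 of the 7 were called without the libraries numbered 1, 0 without those numbered 3 and 7 without those numbered 2. Over all genes the same fits called 59 of 12266, 0 of 12452 and 1846 of 12334 lower, so the calls changed there too. All 7 genes were lower in all 3 pairs, and the share of all genes with that pattern was not counted. The median difference over all 12786 genes was 0.0, 0.0 and −0.037 in pairs 1, 2 and 3. In pair 2 the 7 differences ran from −0.30 in Ifi205 to −0.002 in Aim2, and in every gene this pair was nearest to 0. In pair 1 they ran from −0.70 to −0.22, and in pair 3, the farthest below 0 in 6 of the 7 genes, from −1.08 in Ifi205 to −0.34 in Mnda. The pairs also differed over all genes, where the median absolute difference was 0.218, 0.133 and 0.215 in pairs 1, 2 and 3. The summed list for mesothelial cells and fibroblasts (6 of 6 genes, mostly Col1a1 and Col1a2, none at 0) also differed between pairs, reading 22895, 10984 and 4113 in LPS libraries 1 to 3 and 12596, 11598 and 3503 in oxLDL+LPS libraries 1 to 3. It was lower with oxLDL in pairs 1 and 3, and its part in the differences was not tested.

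**Figure D5:**
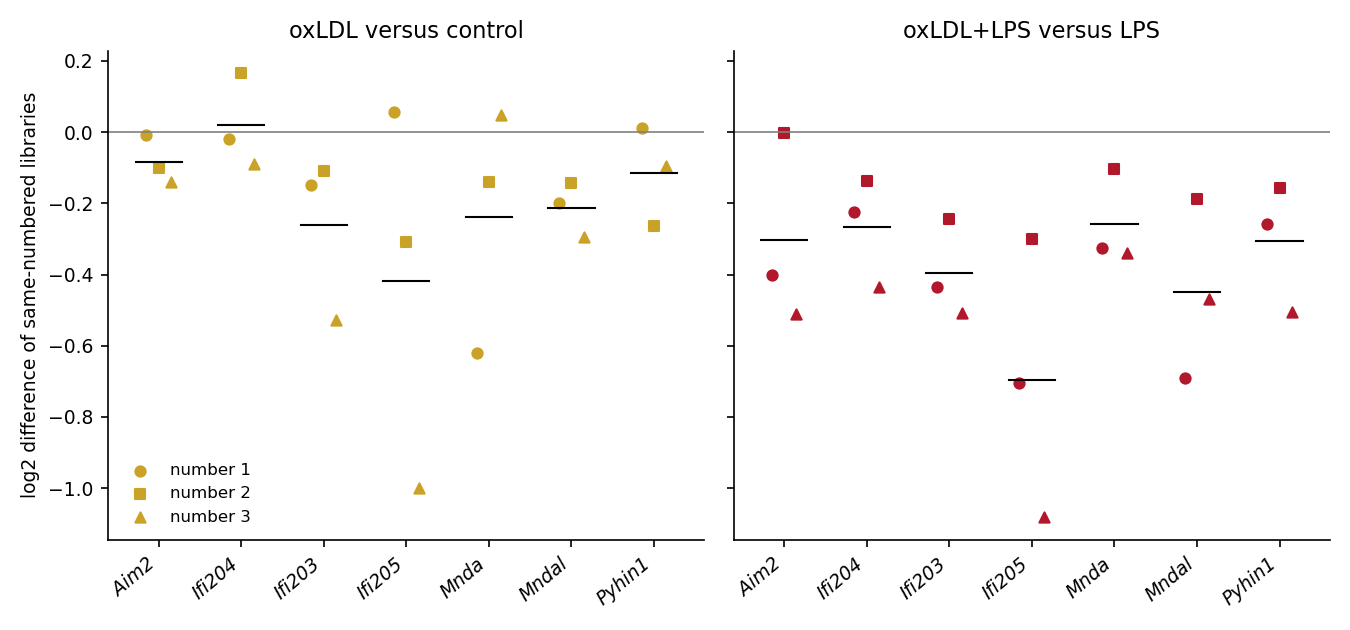
Log2 difference between libraries of the same number, oxLDL versus control (left) and oxLDL+LPS versus LPS (right), with a marker per number and a black line at the mean. On the right every point lies below 0, from −0.002 to −1.08, with pair 2 nearest to 0 for each gene, while on the left the points of Ifi204, Ifi205, Mnda and Pyhin1 lie on both sides of 0.

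Among the other PYHIN genes all 6 tested were lower in the oxLDL+LPS libraries than in the LPS libraries, with a median log2 difference of −0.49 against −0.01 over all genes. None of them was called without the block and all 6 were called with it. Gm4955 read 5224, 5857 and 4518 in the oxLDL+LPS libraries, below all 3 LPS values, with a blocked adjusted p of 0.047, and Gm16340 had the largest difference of these, −0.78 (0.020).

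Whether the effect of LPS itself differed with loading was tested as the interaction of oxLDL and LPS over all 12 libraries. The term was below 0 for all 7 genes, from −0.02 ± 0.18 in Mnda to −0.29 ± 0.15 in Ifi204, and 0 of the 7 were called (limma, adjusted p = 1.00 each). The median of the 7 was −0.22 beside −0.01 over all genes tested, and the share of all genes below 0 was not counted. With the block 0 were called as well, and over all 13482 genes 0.0% were called lower in either fit, with 418 genes at an unadjusted p under 0.05 without the block. Without the block, the 95% interval was −0.67 to 0.22 for Aim2, −0.61 to 0.04 for Ifi204 and −1.32 to 0.76 for Ifi205. The SE of these genes with the block was 0.14, 0.13 and 0.42, against 0.20, 0.15 and 0.48 without it. The 4 pairwise comparisons share libraries, so their values for the same gene are not independent.

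Genes of related pathways were read from 4 further lists. The first held 12 genes of the Aim2 inflammasome and of other inflammasomes, such as Nlrp3, so not all are partners of Aim2. All 12 were tested, and with LPS 8 rose and 1 fell (Txnip, by 0.45). Casp4 (an inflammatory caspase) was higher by 4.56, Zbp1 (nucleic acid sensor) by 6.82, Nlrp3 (a sensor of another inflammasome) by 5.86 and Il1b (the cytokine cut by caspase-1) by 12.76. Pycard, which encodes the adaptor ASC that Aim2 needs, changed by −0.08 (limma, adjusted p = 0.81), and Casp1 rose by 2.28. In loaded cells 8 rose and 1 fell again. Between oxLDL+LPS and LPS none was called without the block, and with it 4 were called lower, Il1b at −2.16, Il18 at −0.66, Zbp1 at −0.36 and Nlrp3 at −0.33, and Ninj1 was called higher at 0.37.

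Of the 11 tested genes for cGAS-STING and DNA handling, 6 rose and 3 fell with LPS. Mb21d1 (cGAS) rose by 2.33, Trim56 by 2.16, Samhd1 (which degrades deoxynucleotides) by 3.00 and the kinase gene Ikbke by 1.94, and Enpp1, Dnase2a (a lysosomal DNase) and Hmgb1 fell by 1.53, 1.16 and 0.43. Of the 12 tested genes for type I interferon ligands, receptors and transducers, 11 rose with LPS. Usp18 rose by 7.11, Irf7 by 6.77 and Stat2 by 4.49, and the receptor genes Ifnar1 and Ifnar2 by 1.73 and 1.65. All 20 interferon-induced antiviral genes rose, with a median of 7.26 against 5.66 for the 7 PYHIN genes, among them Ifit1 by 9.77, Isg15 by 8.60 and Rsad2 by 8.43, as did Isg20 (5.61 in loaded cells). In oxLDL+LPS libraries all 20 were below their LPS level, with a median difference of −0.25 beside −0.31 for the 7 genes, and 0 were called without the block and 3 with it (Isg20, Oas2 and Mx2). In loaded cells LPS raised 5 and lowered 3 of the DNA handling genes, raised 11 of the transducer genes and lowered Irf8, and raised all 20 antiviral genes. With the block, oxLDL+LPS versus LPS called 2 of the 11 lower (Ikbke and Tmem173, which encodes STING). It called 3 of the 12 lower (Ifnar1, Irf8 and Socs1), and without the block none was called. By sign alone, 6 of the 11 and 11 of the 12 had a log2 difference below 0 in that comparison. In oxLDL versus control no gene of these lists was called without the block. With it, the antiviral genes Gbp3, Oas3, Parp14 and Rsad2 were called lower (−0.44, −0.38, −0.24 and −0.28), as were Ikbke (−0.33) and Stat2 (−0.25), and Ninj1 was called higher (0.23). AI607873, the 1 other PYHIN gene tested there, was also called lower with the block (−0.30, limma adjusted p = 0.013).

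The genes with the most similar profile over the 12 libraries were found by Pearson correlation of log2(value + 1), a description that mainly reflects the gap between libraries with and without LPS. Nearest to Ifi204 were Gch1 (r = 0.9996), Ifi47 and Ifi35, to Ifi203 Zbp1 (0.9995), Sp110 and Oasl2, and to Mndal Xaf1 (0.9994), Samd9l and Sp110. Nearest to Mnda were Gbp5 (0.9994), Rsad2 and Trim30a, and to Pyhin1 Eif2ak2 (0.9995), Igtp and Ddx58. For Ifi205 they were Cd14 (0.9982), Slfn2 and Slc2a6. For Aim2 they were Tcf4 (0.9966), Iqsec2 and Fam129a. Between 468 genes, for Aim2, and 762 genes, for Ifi204, reached r above 0.98, so the rank among them carries little.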

How the data were processed

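The authors trimmed 150-base paired reads of poly(A) RNA (Trimmomatic 0.32), aligned them to GRCm38 (STAR 2.5.1b) and counted exonic reads on GENCODE M4 (featureCounts 1.5.0). Strand use and the treatment of reads with several matches are not given in the sources used here. The deposited signal behaves as counts scaled by a factor of each library, then rounded, so tests for raw counts were not run. Groups were compared with limma 3.58.1 (R 4.3.3, trended variance, checked on simulated data) on log2(value + 1), for genes that reached 10 in 3 or more libraries of the comparison (all 12 entered the interaction). A gene was called at p under 0.1 after Benjamini-Hochberg adjustment over all genes tested. Same-numbered libraries deviated together from their group means (correlations of 0.27 to 0.66), so the numbers pair the libraries. The mice behind each number are not identified. Without the block, p-values measure the spread between these pools, and with it the spread left after differences between numbers are removed. Mnda and Pyhin1 were matched to Ifi211 and Ifi209 by RefSeq synonyms. Named were the 7 genes, the other PYHIN genes of the cluster, per list and comparison up to 4 called genes with the smallest adjusted p, and the 3 genes most like each member. Some genes that fall under this rule are left out here. Other list genes and both flanking genes were added after their values were seen. The members and lists were chosen with earlier results of these data known. Alternatives were the replicate block, 1 fit of all libraries, other filters, pseudocounts and scalings, and leaving out each library or, added after the data were seen, each number in the block.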

Additional observations from a re-analysis of the deposited data

How the results depend on the processing

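Across 23 alternatives, 599 of the 627 recomputed log2 changes of single genes kept their direction and their side of the threshold. LPS versus control and oxLDL+LPS versus oxLDL kept all 7 calls throughout, except that Ifi205 could not be tested when every library had to reach 10. The replicate block raised the calls in oxLDL+LPS versus LPS from 0 to 4, and changed no other call of the 7 genes with all libraries in. With the block and 1 replicate number left out (added after seeing the data), calls of the 7 genes in oxLDL+LPS versus LPS ranged from 0 to 7. Calls over all genes ranged from 0 to 2945 there. For oxLDL versus control, calls ranged from 0 to 1 among the 7 genes and from 139 to 1285 over all genes. Fits of 2 pairs leave few residual degrees of freedom. Differences near 0 changed sign without being called. For oxLDL versus control, Ifi204 (0.02) lay between −0.083 and 0.093 and Ifi205 (−0.42) between −0.72 and 0.042 when libraries were left out, and Ifi204 was −0.054 in the block without replicate 2. For the interaction, leaving out libraries gave −0.29 to 0.060 for Ifi203, −0.74 to 0.028 for Ifi205 and −0.140 to 0.072 for Mnda. For Mnda the interaction was 0.075 with equal totals, 0.010 with equal upper quartiles and 0.17 in the block without replicate 3. The cause was not tested. Values of 0 to 25 normalized counts limit fold changes of Ifi205 and of other PYHIN genes at rest, and 3 libraries per group limit differences as small as those with oxLDL.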
